A study of Mus musculus with 12 samples.

Results

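The brain of mice 48 h after photodynamic therapy was compared here with the brain of untreated mice, by RNA sequencing of 3 libraries from each group. All genes above 0.5 FPKM (a read count scaled to gene length and sequencing depth) in at least 3 of these 6 libraries were taken, which gave 16063 of the 54532 genes in the deposited table. Of these, 13646 were above 0.5 FPKM in all 6 libraries, 372 only in 48 h libraries and 150 only in control libraries. Treated mice were injected with 5-aminolevulinic acid (5-ALA) at 20 mg/kg, given 635 nm laser light at 20 J per square centimetre after 30 min, and killed 48 h later, with the brain perfused with saline. The control group carries PBS in its titles and untreated as its treatment, and whether those mice received light or an injection is not stated. Replicates are numbered 1, 3 and 4 at 48 h and 1, 2 and 4 in controls. The labels name the mice both BALB/c and C57BL/6, with no genetic alteration, and give no age, brain region, skull preparation or time of day. Nor is it stated that the libraries are from separate animals, so that p-values measure the spread between libraries, which may be technical. Libraries from 1.5 h and 12 h after the same treatment, 3 each, entered the same fit, and 12 h was compared directly with 48 h.

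Photodynamic therapy couples a light-activated pigment with light. Cells turn 5-ALA into protoporphyrin IX along the heme pathway, and illumination of this porphyrin produces reactive oxygen species that damage cells and vessels nearby. After injury to the brain, astrocytes enlarge and fill with intermediate filaments, microglia change from a resting to a phagocytic state and divide, and damaged neurons switch on genes of repair while genes of synaptic function often fall. In bulk tissue a fall can come from fewer cells of a type or from less RNA per cell, and these cannot be told apart here.

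Recovered reads per library ran from 16247614 to 17444654. Values of genes shifted slightly with gene length: the slope in log2 per doubling of length was 0.045 to 0.069 in controls and -0.032 to 0.013 at 48 h, and the ranges did not overlap. Mitochondrial transcripts took 4.16% to 6.02% of reads in controls and 4.60% to 6.14% at 48 h. The tissue label held: all 16 neuron-wide genes, all 19 astrocyte genes and all 17 genes of myelinating oligodendrocytes passed the filter. Levels of cell type and region markers differed among the 48 h libraries, and whether tissue make-up or levels per cell differed cannot be told apart. Replicate 1 stood apart from replicates 3 and 4, with median marker levels against the control mean of 0.72 for myelin against -0.48 and -0.22, 0.85 for choroid plexus against -0.74 and -0.62, and -1.12 for cortical and hippocampal neurons against -0.02 and -0.22 (log2). Ttr, the main secreted protein of choroid plexus, was at 978, 31.0 and 127 FPKM in 48 h replicates 1, 3 and 4 and at 420 to 659 FPKM in controls. Markers of striatal neurons were lower in replicates 3 and 4 (-1.19 and -0.92) than in replicate 1 (-0.42), while controls ran from -0.44 to 0.50. The part of these differences in the gene changes below was not tested beyond leaving out each library in turn.

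**Figure D1:**
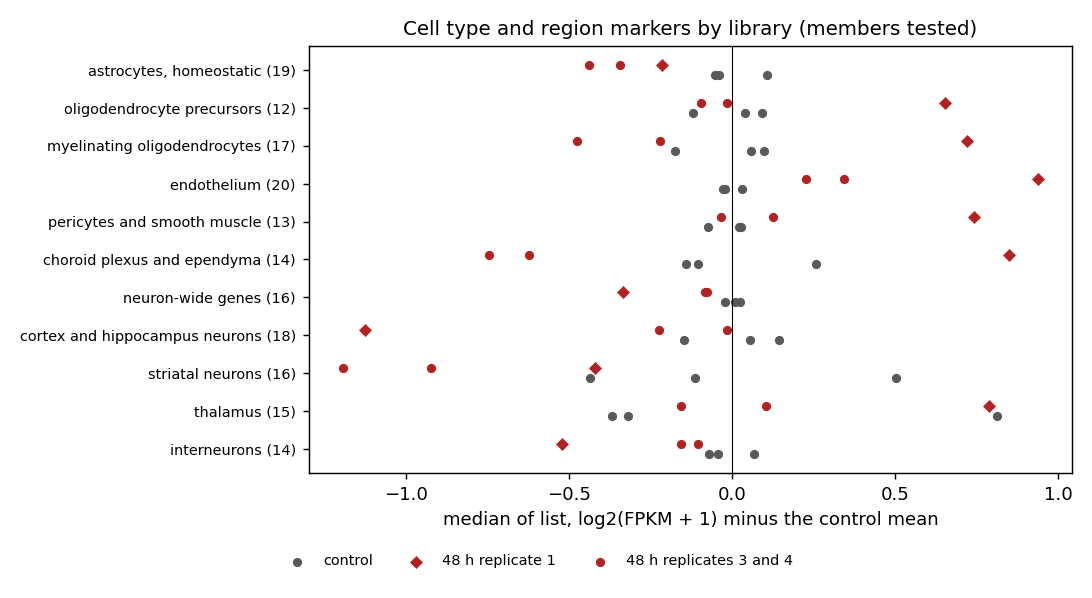
Median over the tested members of each marker list of log2(FPKM + 1) minus the mean of the 3 controls (x axis, log2), for each library, with controls in grey and 48 h libraries in red. The diamond, 48 h replicate 1, lies apart from the other 48 h libraries for myelin, choroid plexus, endothelium and cortical and hippocampal neurons.

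At 48 h, 2255 genes differed from control, which is 14.0% of those tested (limma on log2(FPKM + 1), Benjamini-Hochberg false discovery rate of 0.05). Of these, 1325 rose (8.25%) and 930 fell (5.79%), and by at least 2-fold 571 rose (3.55%) and 163 fell (1.01%). Risen genes had mostly been low, with a median of 1.40 FPKM in controls and 4.88 FPKM at 48 h. Fallen genes had been higher, with a median of 8.33 FPKM in controls and 4.57 FPKM at 48 h, and they were longer (median 4630.5 bases against 3497 bases for risen genes). The median change of all genes was -0.01. Scaled to library totals in place of the deposited scaling, 1573 genes rose and 615 fell, so that the share of rises went from 58.76% to 71.89%. Genes called numbered 1311 without control replicate 1 and 1269 without control replicate 2. Falls depended more on single libraries than rises did: the 930 became 414, 397 and 536 without control replicates 1, 2 and 4 and 715, 494 and 564 without 48 h replicates 1, 3 and 4. Rises ran from 872, without control replicate 2, to 1146, and were 61.58% to 68.83% of the genes called. Without the 1.5 h libraries, whose spread enters the shared error, 2471 rose and 2305 fell, and all 2255 genes were among them.

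**Figure D2:**
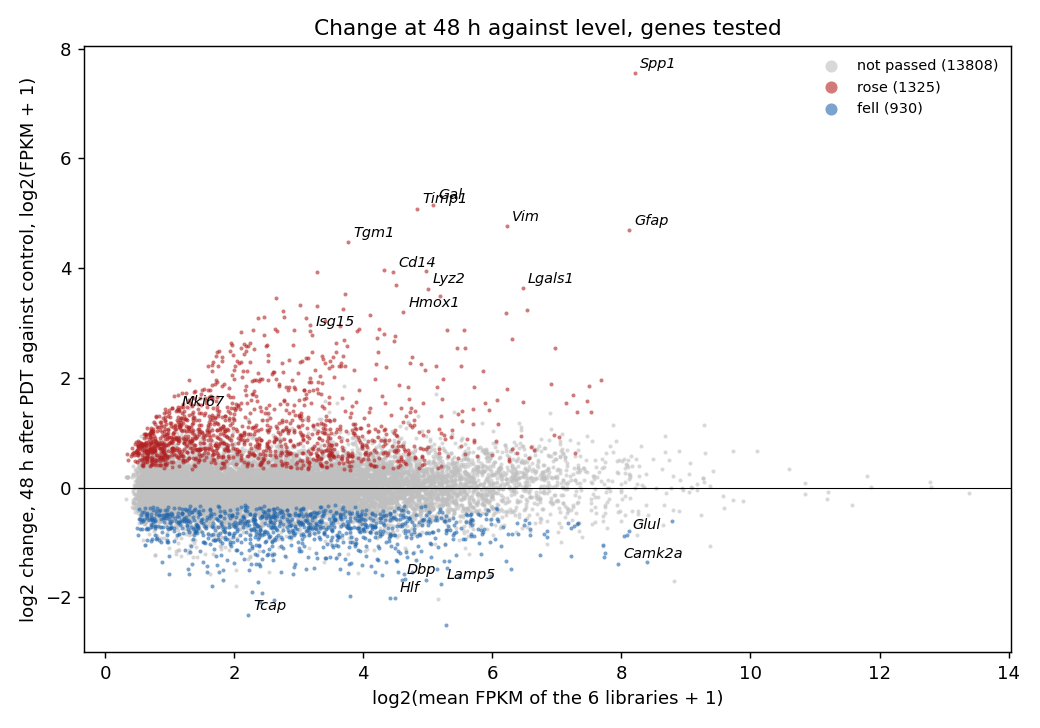
Log2 change at 48 h against control (y axis) by the mean level of the 6 libraries (x axis, log2 of FPKM + 1), for each of the 16063 genes, with the 1325 that rose in red and the 930 that fell in blue. Rises reach 7.55 and are largest for Spp1, Gal and Timp1, while falls are smaller, with Tcap at -2.33.

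The largest rise was that of Spp1 (ENSMUSG00000029304, chromosome 5, 104435118 to 104441050, GRCm38), which encodes osteopontin, a matrix and cytokine protein made by activated microglia and macrophages. Its level was 0.771, 1.03 and 3.51 FPKM in control replicates 1, 2 and 4 and 1109, 220 and 431 FPKM in 48 h replicates 1, 3 and 4. All 48 h libraries were above all controls, as the rule that chose the largest rises requires, and replicate 1 was the highest. The log2 change was 7.55 ± 0.51 (SE of the fit, adjusted p = 6.44e-06). Gal (chromosome 19, 3409919 to 3414472), the neuropeptide galanin, was at 0.325, 0.557 and 1.85 FPKM in controls and 47.3, 67.9 and 79.3 FPKM at 48 h (5.16 ± 0.33, adjusted p = 5.39e-06). Timp1 (chromosome X, 20870166 to 20874735), an inhibitor of matrix proteases, was at 0.651, 0.383 and 0.837 FPKM and 64.5, 42.9 and 55.3 FPKM (5.08 ± 0.23, adjusted p = 1.01e-06). In both genes the spread within a group was small beside the distance between groups.

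Intermediate filaments followed. Vim, vimentin, was at 4.25, 3.38 and 5.03 FPKM in controls and 183, 103 and 144 FPKM at 48 h (4.76 ± 0.23, adjusted p = 1.01e-06). Gfap (chromosome 11, 102887336 to 102900912), the filament protein of astrocytes, was at 21.8, 12.7 and 26.4 FPKM and 632, 437 and 534 FPKM, a 26.3-fold ratio of means (4.69 ± 0.40, adjusted p = 2.89e-05). The groups did not overlap in either gene, as the rule that chose the largest rises requires. Completing the 15 largest rises were Tgm1 (a transglutaminase, 4.47), Tubb6 (a beta tubulin, 3.97), S100a11 (a calcium-binding protein, 3.94), Ccl12 (a monocyte chemokine, 3.93), Cd14 (the lipopolysaccharide co-receptor, 3.93), Ly6a (3.69), Lgals1 (galectin-1, 3.63), Lyz2 (lysozyme of phagocytes, 3.63), Fndc9 (3.52) and Hspb1 (a small heat shock protein, 3.49). Lgals1 was even across libraries, at 12.0, 12.9 and 11.6 FPKM in controls and 166, 183 and 141 FPKM at 48 h. Lyz2 was at 3.73, 3.36 and 3.17 FPKM in controls and at 95.2, 35.9 and 44.6 FPKM at 48 h, with replicate 1 again the highest.

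**Figure D3:**
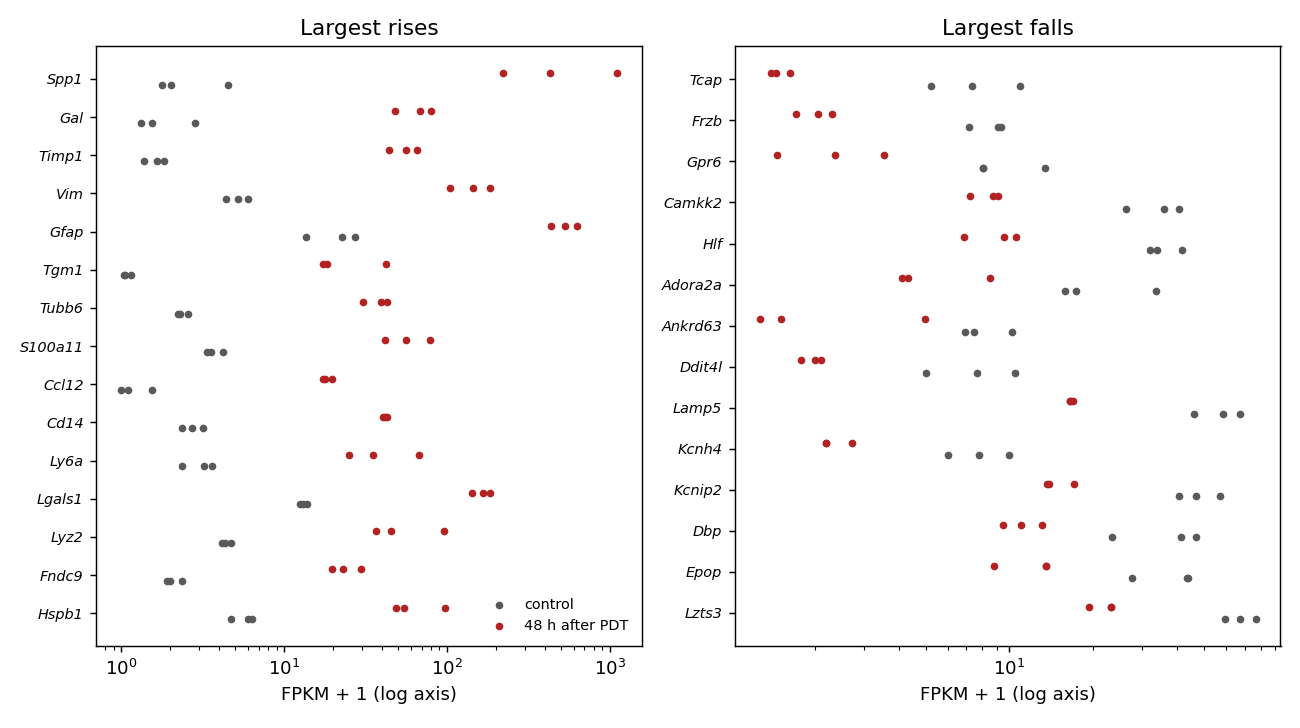
FPKM + 1 on a log axis for the 15 largest rises and 14 of the largest falls, 1 point per library, controls in grey and 48 h in red. By the rule that chose these genes the groups do not overlap, and Lamp5 and Cd14 have 48 h libraries that lie close together, while Spp1 and Ankrd63 show a wide spread.

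Reactive astrocyte genes had risen almost throughout. Of 27 tested, 26 rose and none fell, with a median of 2.54, against 8.25% of all genes and a median of -0.01. Of the 27, 10 had cleared the filter through 48 h libraries alone and so could hardly have come out otherwise, and of the other 17, 16 rose. Lcn2 and Cd44, given below, are among the 10. The exception was Cp, ceruloplasmin (0.31). Lcn2, a secreted iron-binding protein, was at 0.044, 0.0432 and 0.0436 FPKM in controls and at 15, 4.25 and 7.61 FPKM at 48 h. Cd44, a receptor for hyaluronan and osteopontin, was at 0.315, 0.184 and 0.405 FPKM and 13.5, 7.98 and 12.3 FPKM (3.21 ± 0.21, adjusted p = 6.44e-06). Serpina3n, a protease inhibitor, was at 14.2, 8.73 and 19.4 FPKM and 167, 105 and 126 FPKM (3.19 ± 0.51). Members named for interferon-type or complement functions rose too, C4b by 2.63, Cxcl10 by 1.46 and Gbp2 by 1.17. Leaving out any 1 of the 6 libraries left 25 or 26 risen.

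The cytoskeleton and its calcium-binding partners moved the same way, where over all genes 8.25% rose. Of 20 genes of actin and intermediate filaments 16 rose (median 1.65), among them Capg, an actin-capping protein (3.11), Msn, moesin (2.85), and Nes, nestin, a filament of progenitors and reactive astrocytes (2.79). Synm, synemin (-0.51), Actn4, Actn1 and Myl9 did not pass. Of the 18 filament and actin genes that had not cleared the filter through 48 h libraries alone 14 rose. Of 17 S100 proteins, annexins and galectins 10 rose (median 1.3), and of the 16 that had not cleared the filter through 48 h libraries alone 9 rose. Anxa2, a membrane-binding annexin, was at 1.08, 1.43 and 1.36 FPKM in controls and 21.9, 15.4 and 16.4 FPKM at 48 h (3.03 ± 0.15), a change that was similar in all 48 h libraries. S100b, the S100 protein that resting astrocytes already express, did not pass (-0.11).

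Genes of resting astrocyte function went in both directions. Of 19 tested, 3 rose and 5 fell (median -0.36), against 8.25% and 5.79% of all genes. Aqp4, the water channel of astrocyte end-feet, rose from 11.3, 10.1 and 13.6 FPKM to 43.6, 23.9 and 35.0 FPKM (1.44 ± 0.21, adjusted p = 0.000987), and Aldh1l1, a folate enzyme used as an astrocyte marker, rose by 0.86 ± 0.10. Sox9, a transcription factor of astrocytes, rose by 0.79 ± 0.19, a call lost without control replicate 2 or 4 or 48 h replicate 1 or 4. Glul, glutamine synthetase, which recycles glutamate, fell from 338, 342 and 365 FPKM to 209, 162 and 208 FPKM (-0.86 ± 0.18, adjusted p = 0.00829). Ntsr2, a neurotensin receptor, fell by 1.06, Gpc5, a cell-surface proteoglycan, by 0.79, Aldoc, a glycolytic aldolase, by 0.74, and S1pr1 by 0.56 on the log2 scale. Slc1a2, the main glutamate transporter, was at 158, 162 and 140 FPKM and 69.8, 66.7 and 88.9 FPKM, but its change of -1.03 did not pass (adjusted p = 0.0711). Counts of falls were 3 without control replicate 2 or 4 or 48 h replicate 3, and 9 without the 1.5 h libraries. With the same controls the list median at 12 h was 0.30. Compared directly, 10 of the 19 were lower at 48 h than at 12 h and 1 was higher, against 7.91% and 6.18% of all genes.

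Phagocyte genes rose as a block, where over all genes 8.25% rose. All 17 tested genes of phagocyte surface and Fc receptors rose (median 1.77). Of these, 5 had cleared the filter through 48 h libraries alone, and the other 12 rose too. Fcgr2b, given next, is among the 5. Fcgr2b, the inhibitory Fc receptor, was at 0.339, 0.284 and 0.415 FPKM in controls and 5.07, 2.88 and 3.14 FPKM at 48 h (1.77 ± 0.16). Of 18 genes of microglial and macrophage activation 14 rose (median 1.41), and of the 13 that had not cleared the filter through 48 h libraries alone 9 rose. Cd68, a lysosomal membrane protein of phagocytes, was at 4.23, 5.32 and 5.05 FPKM and 47.9, 25.7 and 38.8 FPKM (2.67 ± 0.27, adjusted p = 8.52e-05). Trem2, a lipid-sensing receptor of microglia, was at 2.71, 2.31 and 2.15 FPKM and 8.54, 9.33 and 8.22 FPKM (1.52 ± 0.26), and its adaptor Tyrobp rose by 2.55. Some genes tied to lipid-laden microglia did not pass: Apoe was at -0.41, Lpl at -0.22 and Igf1 at 0.03. Gpnmb and Itgax were below the filter.

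The 3 chains of complement C1q, which microglia make and which tags material for removal, rose together. C1qa was at 35.1, 36.8 and 34.6 FPKM in controls and 193, 230 and 216 FPKM at 48 h (2.55 ± 0.33, adjusted p = 0.000529). C1qb and C1qc rose by 2.70 and 2.88, and all 3 were also higher at 48 h than at 12 h. In the list of Toll-like receptors and complement 16 of 18 rose (median 1.38), against 8.25% of all genes. Among them were the bacterial lipoprotein receptor Tlr2 (2.48) and the anaphylatoxin receptor C3ar1 (2.58). Of the 18, 3 had cleared the filter through 48 h libraries alone, and of the other 15, 13 rose. Cfp (-0.46) and Tlr3 (0.25) did not pass, and Tlr4, C3, C2, Cfb and C1s1 were below the filter. Lysosomal genes rose in 17 of 23 (median 0.86), also against 8.25% of all genes. None of the 23 had cleared the filter through 48 h libraries alone. Ctsd, cathepsin D, was at 71.7, 80.7 and 79.7 FPKM and 324, 232 and 296 FPKM (1.85 ± 0.25), and Ctsz, cathepsin Z, rose by 2.13. Lamp1, Psap, Lipa, Npc2 and Atp6v1b2 were among those that did not pass.

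Markers of resting microglia had mixed outcomes. Of 15 tested, 6 rose and none fell (median 0.55), against 8.25% and 5.79% of all genes. Falls were called in some other fits, 3 without the 1.5 h libraries, where 8 rose, and 2 without 48 h replicate 3. Olfml3, a secreted protein of microglia, was at 1.43, 1.66 and 1.62 FPKM in controls and 9.30, 10.8 and 9.87 FPKM at 48 h (2.10 ± 0.12, adjusted p = 3.74e-06), and Fcrls, an Fc receptor-like protein, rose by 2.47. Cx3cr1, the fractalkine receptor, rose by 0.80. P2ry12, a purinergic receptor of resting microglia, was at 14, 13.5 and 10.5 FPKM in controls and 6.08, 10.02 and 7.47 FPKM at 48 h, all below the controls, but its change of -0.64 did not pass (adjusted p = 0.0755). Tmem119 was at 9.18, 10.9 and 9.44 FPKM and 10.1, 16.5 and 13.1 FPKM and overlapped (0.37, adjusted p = 0.341). Tested directly, 11 of the 15 were higher at 48 h than at 12 h and none was lower, against 6.18% and 7.91% of all genes. P2ry12 was higher by 2.36 ± 0.22 and Tmem119 by 2.40 ± 0.24 (adjusted p = 0.000101 and 0.000132), from 12 h means of 0.692 and 1.67 FPKM.

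Most markers of blood-derived cells were below the filter. Of 18 genes of blood-derived myeloid cells, 16 were below the filter, Ccr2, Ly6c2, S100a8 and S100a9 among them, and their summed level was 2.28 to 2.66 FPKM in controls and 6.11 to 9.21 FPKM at 48 h. The 2 tested, Csf3r, a neutrophil growth factor receptor that microglia also express, and Arg1, arginase, rose by 0.68 and 0.89, and the call of Csf3r was lost on leaving out any 1 of the 6 libraries. Arg1 had cleared the filter through 48 h libraries alone. Of 10 genes of perivascular macrophages 8 were below the filter, and Stab1, a scavenger receptor, rose by 1.96 ± 0.33. Of the red blood cell genes 3 were tested and none passed. Hbb-bs, a beta globin, was at 17.4, 0.221 and 3.72 FPKM in controls and 5.49, 1.85 and 0.832 FPKM at 48 h and overlapped. Of 18 lymphocyte genes 15 were below the filter. Cd4 fell by 1.48 on the log2 scale, from 1.19, 4.58 and 2.23 FPKM to 0.384, 0.176 and 0.119 FPKM, a call lost without any 1 of 5 of the libraries, the exception being control replicate 1. It had cleared the filter through control libraries alone, which favoured a fall, and the call was also lost with no filter on low values.

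Chemokines and cytokines rose in 15 of 19 tested, against 8.25% of all genes. However, 12 of the 19 had cleared the filter through 48 h libraries alone, and of the other 7, 4 rose and 1 fell. Ccl12 was at 0.538, 0.106 and 0 FPKM in controls and 18.8, 16.8 and 16.3 FPKM at 48 h. Ccl3, a chemokine of activated microglia, was at 8.43, 3.21 and 5.42 FPKM at 48 h, and Ccl2, which draws monocytes, at 7.36, 2.40 and 3.37 FPKM. Ccl3 was lower at 48 h than at 12 h by 3.28 on the log2 scale (adjusted p = 0.00251), whereas Ccl12 was higher by 1.77 ± 0.18. Cx3cl1, fractalkine, which neurons make and which binds Cx3cr1, fell from 196, 203 and 187 FPKM to 108, 126 and 141 FPKM (-0.64 ± 0.15), a call lost without control replicate 1 or 2. Il1b, Il6, Osm, Cxcl1, Cxcl2, Cxcl9, Il1rn and Ccl6 were below the filter.

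Cytokine signalling genes moved in part, where over all genes 8.25% rose and 5.79% fell. Of 18 STAT3 and gp130 genes 10 rose and 1 fell (median 0.57), and of the 13 that had not cleared the filter through 48 h libraries alone 6 rose. Socs3, the feedback inhibitor of the pathway, was at 1.12, 1.08 and 0.831 FPKM and 21.3, 13.4 and 10.7 FPKM (2.95 ± 0.25), and Stat3 itself rose by 1.63 ± 0.17. Cntfr, the receptor for ciliary neurotrophic factor, fell by 0.50 on the log2 scale, a call lost with scaling to library totals, without control replicate 1 or 4 and without 48 h replicate 3 or 4. Of 18 NF-kB genes 10 rose (median 0.51), led by Ptgs2, the inducible cyclooxygenase (3.14), and Bcl3 (2.22). Without the 4 that had cleared the filter through 48 h libraries alone, 6 of 14 rose. The inhibitors Nfkbia and Tnfaip3 did not pass (-0.08 and -0.03). None of the 18 NF-kB genes was higher at 48 h than at 12 h, and 9 were lower, against 6.18% and 7.91% of all genes.

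Interferon-stimulated genes rose in 20 of 22 tested (median 1.16), against 8.25% of all genes. Stat2 and Psmb9 were those that did not pass. Of the 22, 6 had cleared the filter through 48 h libraries alone, and of the other 16, 15 rose. In all 22 every 48 h library was above every control, as for 22.0% of all genes, but in those 6 the filter itself fixed this. Isg15 (chromosome 4, 156199424 to 156200818), a ubiquitin-like protein, was at 0.993, 1.35 and 0.908 FPKM in controls and 8.19, 14.2 and 22.7 FPKM at 48 h (2.85 ± 0.30, adjusted p = 0.000125). Ifit3, an RNA-binding antiviral protein, was at 0.497, 0.552 and 0.787 FPKM and 3.33, 4.48 and 10.4 FPKM (2.01 ± 0.29), and Irf7, a transcription factor that amplifies interferon signals, rose by 1.87. In these 3 genes replicate 4 was the highest 48 h library and replicate 1 the lowest, whereas replicate 1 was the highest for Spp1 and Lyz2. Compared with 12 h, 14 of the 22 were higher at 48 h and none was lower, against 6.18% and 7.91% of all genes. Isg15 was higher by 1.95 and Irf9, a subunit of the interferon-activated transcription factor, by 0.46.

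The promoters of interferon-stimulated genes carry a known element, bound by interferon-activated factors, with a core of 2 GAAA units in the same direction separated by 2 bases of any kind. This core was searched on both strands in the RefSeq promoter windows of GRCm38.p6, from 250 bases before to 50 bases after each start, with overlapping matches allowed. Among 27025 promoters the core was present in 3.49%, and of the 19 tested interferon-stimulated genes that have a window 11 held it. The windows of Isg15 (chr4:156200769-156201068, minus strand), Ifit1 (chr19:34640639-34640938, plus strand) and Ifit3 (chr19:34583279-34583578, plus strand) show how the matches lie, in capitals, 5′ to 3′ along the gene. Matches begin and end with TTTC where the element lies on the opposite strand. A match is a description of the sequence and not evidence of binding.
Isg15: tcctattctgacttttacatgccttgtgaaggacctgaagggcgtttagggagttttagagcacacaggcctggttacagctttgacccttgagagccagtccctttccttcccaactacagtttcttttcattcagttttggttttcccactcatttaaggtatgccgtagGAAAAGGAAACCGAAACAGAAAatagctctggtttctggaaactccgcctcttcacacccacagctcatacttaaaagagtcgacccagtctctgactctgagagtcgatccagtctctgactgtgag
Ifit1: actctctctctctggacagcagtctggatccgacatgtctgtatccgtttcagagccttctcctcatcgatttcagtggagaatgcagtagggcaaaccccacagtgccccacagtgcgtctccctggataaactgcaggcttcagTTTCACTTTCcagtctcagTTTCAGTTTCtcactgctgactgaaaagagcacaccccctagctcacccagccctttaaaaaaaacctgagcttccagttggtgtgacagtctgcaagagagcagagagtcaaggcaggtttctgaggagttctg
Ifit3: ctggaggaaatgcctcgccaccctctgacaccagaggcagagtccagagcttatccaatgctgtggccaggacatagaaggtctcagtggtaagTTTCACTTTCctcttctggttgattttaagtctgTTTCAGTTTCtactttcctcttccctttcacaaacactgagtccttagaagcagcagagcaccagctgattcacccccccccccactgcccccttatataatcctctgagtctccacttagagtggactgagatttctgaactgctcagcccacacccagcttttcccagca
Isg15 has 3 matches, which overlap, beginning 78, 72 and 66 bases before the start, while Ifit1 and Ifit3 have 2 each. None of these matches overlapped a match of the other motifs searched here (TTCNNNGAA, CACGTG, TTANGTAA and TGANTCA).

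Antigen presentation genes rose in 10 of 12 tested (median 0.86), against 8.25% of all genes. They rose in 7 of the 9 that had not cleared the filter through 48 h libraries alone. The count among the 12 was 6 without control replicate 1 or 4 or 48 h replicate 4, and 5 without control replicate 2. H2-K1 and H2-D1, class I molecules, rose by 1.40 ± 0.14 and 1.13 ± 0.17, and these genes are close relatives that can share reads. B2m, the light chain of class I, was at 46.4, 40.6 and 36.3 FPKM and 80.6, 93.4 and 107 FPKM (1.16 ± 0.33). H2-Ab1, a class II chain, rose from 0.318, 0.138 and 0.140 FPKM to 1.37, 3.04 and 2.28 FPKM, and it had cleared the filter through 48 h libraries alone. Cd74, the class II invariant chain, did not pass (0.46), and Ciita, H2-Aa and H2-Eb1 were below the filter.

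Genes of cell division rose from very low levels. Of 32 tested 27 rose and 1 fell (median 0.99), against 8.25% and 5.79% of all genes. Since 12 had cleared the filter through 48 h libraries alone, the other 20 are given too, of which 15 rose and 1 fell. Cdk1 and Mki67, given next, are among the 12, so that the filter favoured their rise. Cdk1 (chromosome 10, 69335146 to 69352938), the kinase that starts mitosis, was at 0.0585, 0.0459 and 0.104 FPKM in controls and 2.34, 1.78 and 1.27 FPKM at 48 h (1.37 ± 0.14, adjusted p = 0.000115). Mki67, the marker of dividing cells, was at 0.224, 0.0901 and 0.165 FPKM and 3.34, 1.67 and 1.43 FPKM (1.39 ± 0.18). Ccnd1, cyclin D1, which starts the cycle, rose by 2.01 ± 0.18, while Ccnd2, cyclin D2, fell by 0.52 on the log2 scale. Replicate 1 was the highest 48 h library, with a list median of 1.44 against 0.73 in replicates 3 and 4, and without it 24 rose. Of the 32, 24 were higher at 48 h than at 12 h and 1 was lower, against 6.18% and 7.91% of all genes. The list median at 12 h against the same controls was 0.09.

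**Figure D4:**
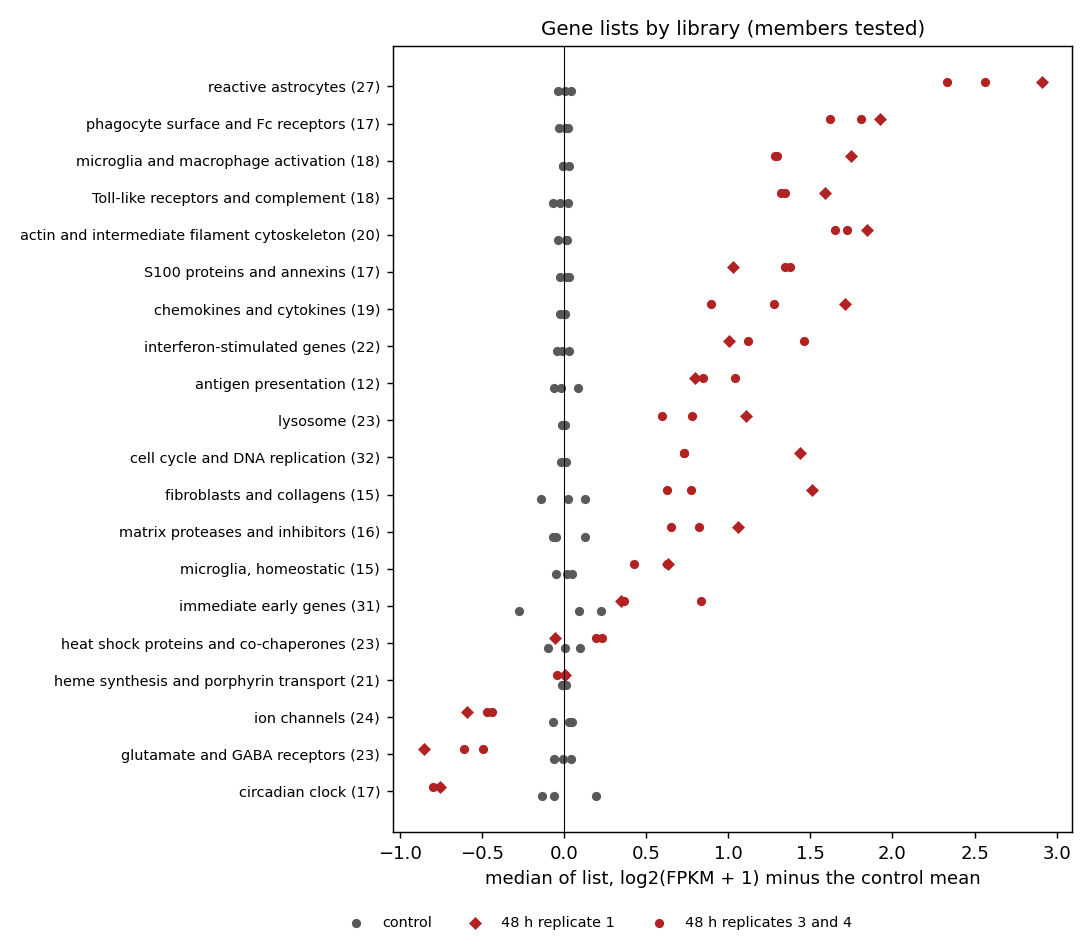
Median over the tested members of 20 gene lists of log2(FPKM + 1) minus the mean of the 3 controls (x axis, log2), for each library, with controls in grey, 48 h in red and 48 h replicate 1 as a diamond. Reactive astrocyte and phagocyte lists lie farthest to the right, heat shock and heme synthesis lists overlap the controls, and the lists of glutamate and GABA receptors and of the circadian clock lie to the left.

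Vessel genes rose in small part, where over all genes 8.25% rose and 5.79% fell. Of 20 endothelial genes 4 rose and 1 fell (median 0.56). The count of rises was 2 without control replicate 1 or 2, and 8 without the 1.5 h libraries. Of the 18 endothelial genes that had not cleared the filter through 48 h libraries alone 3 rose and 1 fell. Ly6a is made by endothelium and also by other activated cells, and it reached 66.4, 34.0 and 24.1 FPKM from 2.21, 1.36 and 2.61 FPKM. The library medians of the endothelial list were 0.94, 0.23 and 0.34 in 48 h replicates 1, 3 and 4. Among 21 genes of blood-brain barrier junctions and transporters 3 rose: Cldn5, the tight junction protein claudin-5, from 14.1, 13.5 and 15.4 FPKM to 45.3, 38.6 and 34.1 FPKM (1.39 ± 0.15, adjusted p = 0.000125), the lactate transporter Slc16a1 (0.77) and the tricellular junction protein Lsr (0.70). Ocln (0.12), Tjp1 (-0.04), Slc2a1 (0.14) and Mfsd2a (0.40) did not pass. Plvap, which forms the diaphragms of leaky vessels, was at 8.11, 6.90 and 7.48 FPKM and 5.48, 5.94 and 6.62 FPKM, below the controls in all 48 h libraries but without passing (-0.28, adjusted p = 0.453).

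Genes of vessel activation and matrix follow, to be set against the 8.25% of all genes that rose. Of 21 genes of permeability, adhesion and activation 12 rose (median 0.79), with Tgfb1, a growth factor that drives matrix synthesis, at 1.94 ± 0.12 and Cav1, caveolin-1, at 1.92 ± 0.17. Vegfa, Edn1 and Angpt1 did not pass. Of 16 matrix proteases and inhibitors 10 rose (median 0.78). In each of these 2 lists 3 members had cleared the filter through 48 h libraries alone, and of the others 9 of 18 and 7 of 13 rose. Of 15 fibroblast and collagen genes 9 rose (median 0.85), and their library medians were 1.51, 0.63 and 0.77 in replicates 1, 3 and 4. This count was 4 without control replicate 1, 5 without control replicate 2 and 13 without the 1.5 h libraries. Of the 14 genes that had not cleared the filter through 48 h libraries alone 8 rose. Tnc, tenascin-C, a matrix protein of injured tissue, was at 0.669, 0.146 and 0.714 FPKM and 14.3, 8.97 and 7.20 FPKM (2.86 ± 0.22). Col1a2, Col3a1, Postn and Lox were below the filter. Of 17 TGF-beta and BMP genes 8 rose (median 0.62), Tgfbi by 2.28 and Inhba, a subunit of activin, by 3.26. Without the member that had cleared the filter through 48 h libraries alone, 7 of 16 rose.

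Some neuropeptide genes rose by large factors. Of 13 neuropeptide genes of the hypothalamus list 4 rose, against 8.25% of all genes: Gal, Trh, Npy and Adcyap1. Trh, thyrotropin-releasing hormone, was at 0.334, 0.655 and 1.41 FPKM in controls and 18.8, 12.5 and 18.7 FPKM at 48 h (3.32 ± 0.24, adjusted p = 9.55e-06), and Npy, neuropeptide Y, at 94.5, 83.4 and 70.3 FPKM and 246, 392.1 and 342 FPKM (1.95 ± 0.38). Gal and Trh were higher at 48 h than at 12 h by 4.30 ± 0.33 and 2.99 ± 0.24. Pomc, Agrp, Avp and Cartpt, further peptides of the hypothalamus, did not pass (0.41, -0.53, 0.46 and -0.69). Genes known from injured axons rose in 10 of 18 (median 0.59), also against 8.25% of all genes, and in 8 of the 16 that had not cleared the filter through 48 h libraries alone. They included Sprr1a, listed at 0 in all controls and at 6.95, 3.25 and 4.23 FPKM at 48 h, the TWEAK receptor Tnfrsf12a (2.89), the transcription factor Atf3 (2.63) and the peptide precursor Vgf (1.57). Sprr1a had cleared the filter through 48 h libraries alone. Gap43, the growth cone protein, did not pass (0.28).

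Of 190 microRNA loci tested, 9 rose and 7 fell, smaller shares than the 8.25% and 5.79% of all genes. Such a count says only that reads lay over the annotated hairpins, not that mature microRNAs changed. Mir132 and Mir212, chosen after their values were seen, lie side by side on chromosome 11 and are known as targets of neuronal activity and neurotrophins. Mir132 was at 2.63, 9.44 and 7.80 FPKM in controls and 38.0, 19.0 and 40.3 FPKM at 48 h (2.20 ± 0.49, adjusted p = 0.0124), and Mir212 at 3.17, 6.85 and 4.40 FPKM and 38.1, 27.0 and 49.7 FPKM (2.77 ± 0.36, adjusted p = 0.000553). Both were above the controls in all 48 h libraries. Their 3′ arms share a seed, bases 2 to 8, shown in capitals in the RefSeq sequences (GRCm38.p6).
mmu-miR-132-3p: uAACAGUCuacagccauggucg
mmu-miR-212-3p: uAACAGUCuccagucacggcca

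Genes of the early stress response were much lower at 48 h than at 12 h. Hspa1b and Hspa1a, the inducible HSP70 chaperones, had 12 h means of 2187 and 1434 FPKM. At 48 h Hspa1b was at 1.89, 4.75 and 3.99 FPKM against 2.23, 3.56 and 3.51 FPKM in controls, and the groups overlapped (0.11 ± 0.28, adjusted p = 0.843). As close copies the pair can share reads. Of 23 heat shock genes, 3 rose at 48 h, Hspb1, Hspb8 (1.84) and Bag3 (1.64), and 1, the co-chaperone Dnajb1, fell by 0.58 on the log2 scale (median 0.11). Over all genes 8.25% rose and 5.79% fell. The call of Dnajb1 was lost with scaling to library totals and without any 1 of 5 libraries, the exception being control replicate 1. None of the 23 was higher than at 12 h and 14 were lower, against 6.18% and 7.91% of all genes. Immediate early genes, the fast response of neurons to stimulation, rose in 8 of 31 (median 0.41, against 2.06 at 12 h with the same controls), and 25 of the 31 were lower than at 12 h and none was higher.

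Fos, the best known immediate early gene, was at 10.3, 23.1 and 34.7 FPKM in controls and 46.5, 34.5 and 101 FPKM at 48 h and overlapped (adjusted p = 0.226). Npas4, a transcription factor of active neurons, was at 8.43, 18.6 and 8.08 FPKM and 17.8, 11.2 and 60.6 FPKM and also overlapped (adjusted p = 0.34). Both were lower than at 12 h, by 3.25 and 5.32 on the log2 scale. Among the 8 members that rose were Nptx2, a synaptic pentraxin (17.9, 13.7 and 17.3 FPKM to 106, 198 and 199 FPKM, 3.24 ± 0.23), Bdnf, a neurotrophin (2.04 ± 0.21), and Jun, a subunit of AP-1 (1.11 ± 0.16). Each of these 3 was still lower at 48 h than at 12 h.

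Other stress lists were intermediate, and over all genes 8.25% rose and 5.79% fell. Of 19 ATF4 targets 5 rose (median 0.42), with Nupr1, a stress-induced chromatin protein, at 2.58 ± 0.17 and higher than at 12 h by 2.16. The count was 3 without any 1 control or without 48 h replicate 3 or 4, and 10 without the 1.5 h libraries. Without the member that had cleared the filter through 48 h libraries alone, 4 of 18 rose. Of 19 genes of the unfolded protein response 6 rose (median 0.56), each modestly, Edem1 by 0.88 and Pdia3 by 0.69. Only 1 rose without any 1 of the controls or without 48 h replicate 1 or 4, and 5 without replicate 3. In the fit without the 1.5 h libraries 13 rose. Of 23 p53 and cell death genes 6 rose and 1 fell (median 0.34), and of the 21 that had not cleared the filter through 48 h libraries alone 4 rose and 1 fell. Cdkn1a, the p21 inhibitor of division, was at 2.88, 3.24 and 8.60 FPKM and 17.7, 40.4 and 33.8 FPKM (2.47 ± 0.35), and Casp8, which starts death signalling, rose by 1.18 ± 0.14. Bax, Bbc3 and Mdm2 did not pass. Of 18 glucocorticoid targets 2 rose and 3 fell, and 12 were lower at 48 h than at 12 h, against 7.91% of all genes. Of the 16 that had not cleared the filter through 48 h libraries alone 1 rose and 3 fell.

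The heme pathway, which makes the photosensitizer, was close to control. Of 21 genes of heme synthesis and porphyrin transport 2 rose and 1 fell, a share of rises near the 8.25% of all genes (median 0.01). Alas1, which makes 5-ALA, was at 10.1, 9.81 and 10.4 FPKM in controls and 9.65, 10.1 and 10.9 FPKM at 48 h, and Fech, which puts iron into protoporphyrin IX, at 21.1, 21.6 and 19.3 FPKM and 19.8, 22.8 and 21.5 FPKM. Both overlapped the controls (changes of 0.01 ± 0.13 and 0.05 ± 0.11, adjusted p = 0.957 and 0.825). Alad, the enzyme that joins 5-ALA into porphobilinogen, rose from 11.1, 9.99 and 15.5 FPKM to 30.3, 24.3 and 24.5 FPKM (1.07 ± 0.24, adjusted p = 0.014). It no longer passed without control replicate 1 or 2 or 48 h replicate 1. Tspo, a mitochondrial outer membrane protein that binds porphyrins and marks reactive glia, was at 2.53, 2.97 and 3.10 FPKM and 24.9, 22.0 and 19.6 FPKM (2.58 ± 0.21, adjusted p = 2.23e-05). Slc15a2, a peptide transporter that carries 5-ALA, fell by 0.52 on the log2 scale, a call lost with scaling to library totals and without any control, or 48 h replicate 3.

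Heme breakdown, iron and oxidative stress genes rose in part, against 8.25% of all genes. Of 16 genes of heme breakdown and iron 5 rose (median 0.44). The count was 3 without any 1 control or without 48 h replicate 1 or 3, and 8 without the 1.5 h libraries. Without the member that had cleared the filter through 48 h libraries alone, 4 of 15 rose. Hmox1, heme oxygenase 1, was at 2.41, 2.14 and 2.91 FPKM in controls and 99.1, 19.8 and 14.4 FPKM at 48 h, with replicate 1 far above the others (3.20 ± 0.59, adjusted p = 0.00441). Trf, transferrin, was at 2.52, 2.47 and 3.91 FPKM and 22.98, 9.89 and 11.6 FPKM (1.93 ± 0.32), and Ftl1, ferritin light chain, at 73.9, 76.4 and 61.0 FPKM and 264, 206 and 161 FPKM (1.54 ± 0.38). Trf is made by oligodendrocytes and choroid plexus, whose markers were also highest in replicate 1, and their part in its rise was not tested. Of 22 NRF2 and oxidative stress genes 6 rose (median 0.39), Srxn1, which repairs peroxiredoxins, by 1.42 ± 0.17 and the regulator Nfe2l2 itself by 0.79 ± 0.15. Nqo1, Gclc, Gclm and Slc7a11, further known targets, did not pass (-0.17, 0.07, 0.24 and 0.16).

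The largest falls were smaller than the largest rises. Receptors of striatal neurons were among them. Gpr6, an orphan receptor (chromosome 10, 41069977 to 41072285), was at 7.05, 12.4 and 7.01 FPKM in controls and 2.54, 0.459 and 1.37 FPKM at 48 h (-2.05 ± 0.34, adjusted p = 0.00224). Adora2a, an adenosine receptor, was at 14.9, 32.5 and 16.4 FPKM and 7.51, 3.10 and 3.34 FPKM (-1.98 ± 0.51, adjusted p = 0.0244). All 48 h libraries were below all controls in both, as the rule that chose the largest falls requires. The call of Adora2a was lost without control replicate 2 or 48 h replicate 3 or 4, and control replicate 2 held the highest level of both genes. Of 16 striatal genes 4 fell and none rose (median -0.69), against 5.79% and 8.25% of all genes. The count of falls was 1 without control replicate 2, 48 h replicate 3 or 48 h replicate 4. It was 2 without control replicate 4, 2 with scaling to library totals and 8 without the 1.5 h libraries. In these genes the share of striatum in each sample and a change per cell cannot be told apart.

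In 3 other large falls the 48 h libraries lay close together. Lamp5 (chromosome 2, 136052239 to 136069917), a membrane protein of cortical neurons, was at 57.5, 66.3 and 44.9 FPKM in controls and 16, 15.5 and 15.5 FPKM at 48 h (-1.76 ± 0.18, adjusted p = 0.000123). Kcnip2, a subunit of potassium channels, was at 45.8, 56.2 and 39.7 FPKM and 12.8, 16.1 and 12.7 FPKM (-1.69 ± 0.21). Camkk2, a calcium-activated kinase, was at 34.8, 39.7 and 25.3 FPKM and 7.72, 8.10 and 6.22 FPKM (-2.02 ± 0.30). By the rule that chose the largest falls all 48 h libraries were below all controls in each of them. All 3 genes were also lower than at 12 h. Further large falls were Tcap (-2.33), the secreted Wnt antagonist Frzb (-2.08), Ankrd63 (-1.93), Ddit4l (-1.91), the potassium channel Kcnh4 (-1.72), Epop (-1.67), the synaptic protein Lzts3 (-1.63) and the transcription factors Hlf and Dbp, given with the clock genes. The call of Ankrd63 was lost without control replicate 2 or 48 h replicate 3 or 4.

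Receptors of synapses fell in part. Of 23 glutamate and GABA receptor genes 9 fell and none rose (median -0.60), against 5.79% of all genes, and in 20 of the 23 every 48 h library was below every control, as in 23.3% of all genes. Gabrd, the delta subunit of extrasynaptic GABA-A receptors, was at 28.0, 33.1 and 24.5 FPKM and 7.33, 10.5 and 8.59 FPKM (-1.59 ± 0.19, adjusted p = 0.000279). Gria3 and Gria2, AMPA receptor subunits, fell by 1.14 and 0.82 and Grm5, a metabotropic glutamate receptor, by 0.99 on the log2 scale. Counts of falls were 5 without control replicate 1, 3 without control replicate 2 and 6 without control replicate 4, and 16 fell without the 1.5 h libraries. Cacng3, an AMPA receptor auxiliary subunit placed in the thalamus list, was at 39.5, 36.5 and 31.8 FPKM and 8.92, 11.8 and 13.5 FPKM (-1.58 ± 0.16, adjusted p = 8.27e-05) and was lower than at 12 h by 1.99.

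Of 24 ion channel genes 4 fell and none rose (median -0.48), Kcnj9 and Kcnj3, which form potassium channels opened by G proteins, among them, and 1 or 2 fell when any 1 library was left out, 1 with scaling to library totals and 13 without the 1.5 h libraries. Of 22 genes of the synaptic vesicle cycle 3 fell (median -0.38): the fusion protein Stx1a, from 117, 114 and 83.8 FPKM to 29.0, 47.2 and 47.0 FPKM (-1.35 ± 0.23), the active zone protein Rims1 (-1.32) and the calcium sensor Syt7 (-0.70). The calls of Rims1 and Syt7 were lost with scaling to library totals. In the list 1 or 2 genes fell when any 1 library was left out, and 8 without the 1.5 h libraries. None of 16 neuron-wide genes passed (median -0.21). Of 18 genes of cortical and hippocampal neurons 1 rose and 4 fell (median -0.40), Camk2a, the synaptic calcium kinase, from 385, 358 and 318 FPKM to 92.4, 174 and 149 FPKM (-1.39 ± 0.28). In Camk2a replicate 1 was the lowest, as it was for the list. Of 14 interneuron genes 1 rose, the neuropeptide Npy, and 3 fell (median -0.28): Dlx1, a transcription factor, by 0.85 ± 0.12 on the log2 scale, Dlx2 by 0.69 and Tac1 by 0.86. The count of falls was 1 without control replicate 2 or 48 h replicate 1 or 4. Gad1, Gad2, Sst and Pvalb did not pass. Over all genes 8.25% rose and 5.79% fell.

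Circadian clock genes fell in 11 of 17, and 1 rose, against 5.79% and 8.25% of all genes. The median was -0.85, with all 48 h libraries between -0.80 and -0.75. Hlf (chromosome 11, 90336536 to 90390895), Dbp and Tef, transcription factors that bind the D-box and are driven by the clock, were among the clearest. Hlf was at 32.8, 40.9 and 31.0 FPKM in controls and 9.56, 5.85 and 8.61 FPKM at 48 h (-2.01 ± 0.29, adjusted p = 0.00112), and Dbp at 40.4, 45.8 and 22.3 FPKM and 12.1, 8.45 and 9.997 FPKM (-1.68 ± 0.30). Ciart (chromosome 3, 95878503 to 95882251), a repressor of the clock, was at 9.56, 12.1 and 8.60 FPKM and 4.13, 2.80 and 2.35 FPKM (-1.45 ± 0.23). The groups did not overlap in any of the 3, which for Hlf and Dbp follows from the rule that chose the largest falls.

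Nr1d1, Nr1d2, Per1, Per3, Cry2, Npas2 and Arntl also fell, by 0.54 to 1.10 on the log2 scale, and Nfil3, a repressor that competes at the D-box, rose from 4.39, 3.38 and 8.36 FPKM to 12.4, 13.05 and 17.0 FPKM (1.31 ± 0.28). Per2, Cry1 and Clock did not pass (-0.62, -0.25 and -0.09). Falls thus included Arntl, of the activating arm, as well as the Nr1d and Dbp genes, and the phase of the clock was not tested. Of the 17, 7 were lower at 48 h than at 12 h and none was higher, against 7.91% and 6.18% of all genes. Per1 was lower by 1.85 and Ciart by 1.51, while Dbp did not differ beyond the spread (0.41, adjusted p = 0.398). The count of falls was 5 without control replicate 2 and 5 without 48 h replicate 3. The hour at which brains were taken is not stated, and an effect of the hour cannot be told apart from that of the treatment.

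The clock activates its targets through the E-box CACGTG, which reads the same on both strands. In the same RefSeq windows 7.20% of all promoters held it, and of the 15 tested clock genes that have a window 5 did. Ciart (chr3:95882179-95882478, minus strand), with 3 matches, and Tef (chr15:81802423-81802722, plus strand), with 1, are shown with the matches in capitals.
Ciart: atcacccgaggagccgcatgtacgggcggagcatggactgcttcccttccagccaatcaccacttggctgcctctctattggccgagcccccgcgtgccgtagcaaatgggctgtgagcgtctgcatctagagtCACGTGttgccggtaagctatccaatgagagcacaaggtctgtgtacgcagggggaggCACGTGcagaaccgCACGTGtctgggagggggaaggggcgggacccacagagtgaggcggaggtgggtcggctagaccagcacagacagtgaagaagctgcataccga
Tef: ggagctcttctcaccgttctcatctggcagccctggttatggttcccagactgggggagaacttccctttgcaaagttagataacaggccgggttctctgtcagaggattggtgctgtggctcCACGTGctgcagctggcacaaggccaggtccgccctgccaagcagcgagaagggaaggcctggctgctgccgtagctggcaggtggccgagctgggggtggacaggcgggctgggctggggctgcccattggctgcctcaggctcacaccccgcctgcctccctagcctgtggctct
The D-box, searched as TTANGTAA, lay in 2.36% of all promoters and in 1 of the 15. Tef was at 63.7, 71.7 and 51.1 FPKM in controls and 27.2, 34.5 and 33.2 FPKM at 48 h (-0.95 ± 0.17, adjusted p = 0.0045).

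Oligodendrocyte genes did not change as a list, where over all genes 8.25% rose and 5.79% fell. Of 17 myelin genes 1, Trf, rose, and the library medians of 0.72, -0.48 and -0.22 lay on both sides of the controls. Mbp, myelin basic protein, was at 385, 331 and 387 FPKM in controls and 431, 177 and 187 FPKM at 48 h (-0.59 ± 0.35, adjusted p = 0.303). Without replicate 1, 3 myelin genes fell. Of 12 precursor genes, Olig2 and Vcan rose, by 0.72 and 0.61, and both calls were lost without control replicate 1 or 2 or 48 h replicate 1, that of Olig2 also without 48 h replicate 3.

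Housekeeping lists depended on the libraries in the fit. None of 27 ribosomal protein genes passed, although in 25 of them every 48 h library was above every control (median 0.67), against 22.0% of all genes. Without the 1.5 h libraries, whose ribosomal protein levels spread widely, 23 of the 27 rose. None of 23 proteasome genes passed either (median 0.44), and 15 rose without the 1.5 h libraries. Of 19 cholesterol synthesis genes 4 rose (median 0.45), against 8.25% of all genes, and 14 rose without the 1.5 h libraries. Sqle, squalene epoxidase, rose from 10.7, 10.2 and 11.3 FPKM to 18.3, 18.7 and 19.3 FPKM (0.75 ± 0.11). Of 26 nuclear genes of oxidative phosphorylation none passed in either fit (median 0.14).

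Tested directly, 2264 genes differed between 48 h and 12 h (14.1%), 993 higher at 48 h (6.18%) and 1271 lower (7.91%). The split depends on the scaling: with library totals 2126 were higher and 791 lower, and the median difference of all genes went from 0.03 to 0.15. Of the 15 largest rises at 48 h, 10 were higher than at 12 h, Gal, Lyz2 and Lgals1 by 4.30, 2.85 and 2.78. Cd14 and Hspb1 were lower than at 12 h, by 1.15 and 0.94, and Tubb6, Ly6a and Fndc9 did not pass. The changes against control at 12 h and 48 h share the 3 control libraries and are therefore only set side by side.

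**Figure D5:**
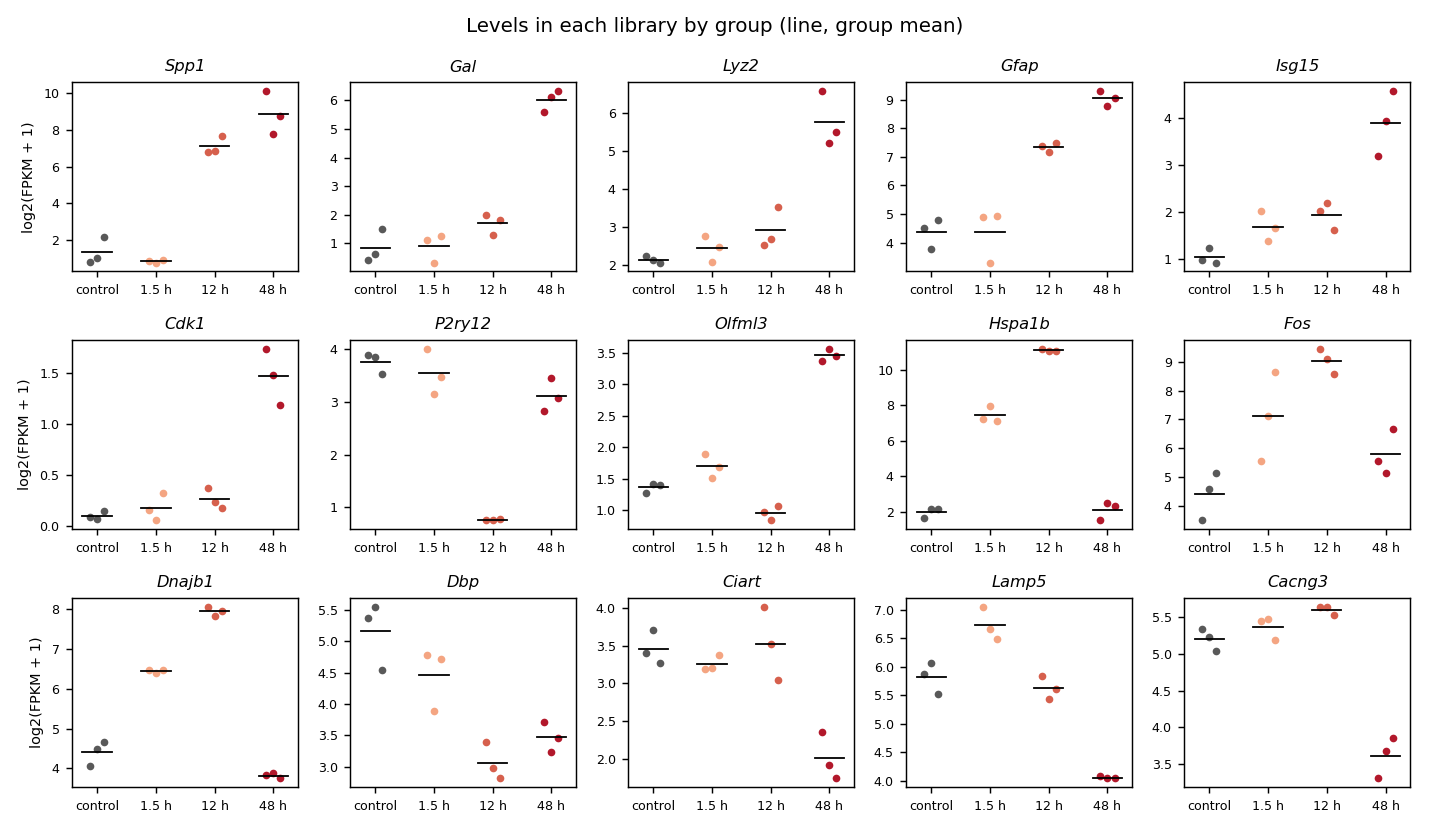
Levels of 15 genes as log2(FPKM + 1) (y axis) in the 3 libraries of each group, controls, 1.5 h, 12 h and 48 h after treatment, with a line at the group mean. Hspa1b, Fos and Dnajb1 are highest at 12 h, Gal, Lyz2, Isg15, Cdk1 and Olfml3 at 48 h, and P2ry12 is lowest at 12 h and Lamp5, Cacng3 and Ciart at 48 h.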

How the data were processed

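The authors deposited a table of FPKM values per gene, with genes, lengths and positions given on GRCm38 (98.33% of 54409 matched identifiers had the same start and end in GENCODE M21). Bowtie 0.12.2 and the mm8 build are named in the submitters' processing notes, and the counting tool, annotation and strand setting are not given in the sources used here, so that overlapping and antisense genes and close copies are uncertain. Values were whole multiples of 1 read (100% within 0.05 of a step), which gave the reads per library, and the deposited FPKM values were already scaled by median ratios over 18170 genes.

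The 12 libraries of the 4 groups were matched to samples by column name; 1 of the 12 h libraries has a number that differs between column and title and was used without one. FPKM values were taken as log2(FPKM + 1), which understates changes of low genes, and fitted with limma 3.58.1 in R 4.3.3, using genes above 0.5 FPKM in at least 3 of the 6 control and 48 h libraries. The 4 groups shared 1 error estimate (8 residual and 3.1 prior degrees of freedom), and adjusted p-values are Benjamini-Hochberg values over all 16063 genes, with a threshold of 0.05. The fit was tested on simulated data with the same spread in all libraries and no changes in genes with few reads. That test does not cover libraries of unequal spread or low genes. Intervals that need counts were not used, and p-values rest on 3 libraries a group.

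Genes named are the 15 largest rises and falls with a mean of at least 1 FPKM in the higher group and no overlap between groups, leaving out clone-named and small RNA genes, the 3 strongest of each direction in each of 58 lists, and 22 chosen genes; some genes that meet the rule are not reported here. Further list members were chosen as examples after their values were seen. The members and lists were chosen with earlier results of these data known, so that lists are described by counts and medians without a test. Alternatives were other pseudocounts and filters, quantile scaling, scaling to library totals, a correction for gene length, voom on the recovered reads, fits to fewer groups, a replicate block and leaving out each library. Promoter and microRNA sequences are from RefSeq (GRCm38.p6).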

Additional observations from a re-analysis of the deposited data

Results flagged for a closer look

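Of the genes named by rule, 6 passed against control in opposite directions at 12 h and 48 h and also passed the direct test between the times. They were picked by these calls, so that passing the direct test is part of the choice and not a further result. All libraries at 12 h lay on one side of the controls and all libraries at 48 h on the other. The control libraries are shared by both sides, and the direct difference is therefore the value given. Dnajb1, a co-chaperone of HSP70, went from 267, 226 and 249 FPKM at 12 h to 13.2, 13.7 and 12.4 FPKM at 48 h, with controls at 15.6 to 24.2 FPKM between them (difference of -4.14, adjusted p = 9.86e-08). Tac1, the precursor of substance P in striatal neurons, differed by -2.58, Arpp21, a phosphoprotein of the same neurons, by -2.10, the clock gene Per1 by -1.85 and the sulfotransferase Sult1a1 by -1.55, each above control at 12 h and below it at 48 h. Olfml3, of microglia, differed by 2.50 in the opposite sense, from 0.949, 0.784 and 1.10 FPKM at 12 h to 9.30, 10.8 and 9.87 FPKM at 48 h around controls of 1.43 to 1.66 FPKM.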

How the results depend on the processing

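The 2255 genes that differed at 48 h from control became 3935 with only these 2 groups in the fit and 4776 without the 1.5 h libraries, and the 2264 that differed between 48 h and 12 h became 3611 and 4938. Leaving out 1 library at a time gave 1269 to 1861 and 1199 to 2194 genes. Other pseudocounts and filters, quantile scaling, library totals, length correction and voom kept both counts within 1.5 times. Of 160 named genes that passed, 108 passed under all 17 alternatives, 3 more passed under 16 and were not tested with the filter at 1 FPKM, and 14 were lost only under the replicate block, and no named gene changed direction while passing. Scaling to library totals moved the median change of all genes from -0.01 to 0.04. Groups of 3 libraries, genes near the 0.5 FPKM floor and 48 h libraries with unlike levels of region markers limit what can be said of small changes, and a change that did not pass is not shown to be absent.

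Controls and 48 h libraries share the replicate numbers 1 and 4. With the number as a block 802 genes differed from control (646 higher, 156 lower) and 274 differed between 48 h and 12 h. Deviations of same-numbered libraries correlated by -0.08 and 0.0081 across genes, so that the numbers were not treated as pairs.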

Other observations

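Lipid handling genes were not a list of the main text. Of 17 genes of cholesterol and lipid export 6 rose and none fell (median 0.32). Over all genes 8.25% rose and 5.79% fell, with a median of -0.01. Of the 15 that had not cleared the filter through 48 h libraries alone 4 rose. Fabp7, a fatty acid binding protein of glial progenitors, was at 11, 10.2 and 10.2 FPKM in controls and 48.3, 52.0 and 49.5 FPKM at 48 h (2.15 ± 0.35), and it was higher than at 12 h by 1.73. Plin2, which coats lipid droplets, was at 1.20, 1.16 and 1.43 FPKM and 17.8, 7.62 and 8.03 FPKM (2.33 ± 0.26). Apod, an apolipoprotein of glia, was at 30.6, 26.9 and 36.5 FPKM and 168, 71.6 and 112 FPKM (1.79 ± 0.39), and Abca1, the cholesterol exporter, rose by 1.09. Replicate 1 was the highest 48 h library for Plin2, Apod and Abca1, and Fabp7 was even across the 3. Apoe and Lpl did not pass.

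Among 19 genes of hypoxia and glycolysis 2 rose and 1 fell, shares near the 8.25% and 5.79% of all genes. The count of rises depended on the fit: it was 5 with quantile scaling or length correction and 8 without the 1.5 h libraries. Of the 18 that had not cleared the filter through 48 h libraries alone 1 rose and 1 fell. Adm, adrenomedullin, a vasodilator peptide, was at 0.642, 1.19 and 1.41 FPKM in controls and 3.82, 4.32 and 5.92 FPKM at 48 h (1.45 ± 0.22), below its 12 h mean of 10.8 FPKM. Hk2, a hexokinase, rose by 0.77. Hif3a fell by 0.86 on the log2 scale, a call lost without any control or without 48 h replicate 3 or 4.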
